A study of Mus musculus with 24 samples.

Results

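The genes of the mitochondrial and death receptor routes to apoptosis were examined in 6 organs of Nur77-/- mice, each set against the same organ of wild-type mice. The list held 9 genes: the BH3-only genes Bid and Bcl2l11, the pore-forming genes Bak1 and Bax, the pro-survival genes Bcl2 and Bcl2l1, the initiator caspase genes Casp8 and Casp9, and the death receptor gene Fas. Members were taken by their gene symbol in the annotation of the array's probes, and 5 of the 9 had a probe there, 11 probes in all, among 9834 genes with a single symbol. Bax, Casp8, Casp9 and Fas are not listed in that annotation and were not analysed here. The 5 measured genes are all members of the Bcl2 family, so the results concern that family and no caspase or receptor of the list.

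Nur77 is the protein of Nr4a1, an orphan nuclear receptor that is switched on early after many stimuli and is best known for driving the death of lymphocytes. In apoptosis through mitochondria, BH3-only proteins such as Bid and Bim, the product of Bcl2l11, switch on Bak and Bax, which open the outer mitochondrial membrane, while Bcl2 and Bcl-xL, the product of Bcl2l1, hold them in check. Nur77 protein can also leave the nucleus and bind Bcl2 at mitochondria, a step that acts on protein and that a measurement of RNA does not see.

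Each array compared RNA of Nur77-/- mice with RNA of Nur77+/+ mice of the same organ: lung, spleen, testis, skeletal muscle (skeleton muscle in the labels), heart and brown adipose tissue. There were 4 arrays per organ and 24 in all, with the mutant pool in Cy5 on replicates 1 and 2 and in Cy3 on replicates 3 and 4. Both sides were pools, 7 mutant mice against 7 wild-type mice in the series' design text, while the labelling protocol gives a control pool of 6 animals. The 4 arrays of an organ were therefore read as repeat hybridisations of 1 pair of pools. A p-value is taken to set their difference against hybridisation error, not against the spread between animals. The labels give the genotype alone, with no age, strain, treatment or construct. The wild-type channel of heart replicate 2 is labelled as skeletal muscle. With that array left out no member gene passed in heart, where none had passed with it. The skeletal muscle values were not examined without it, although their estimate of the spread includes this array.

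All values are log2 ratios, read as mutant over wild type. That direction was taken as likely because it puts Nr4a1, the targeted gene, lower in the mutant pool. The sources used here do not state the direction. They hold no level of either pool, so a gene's abundance and the labelled tissue could not be checked against marker genes, and in whole tissue a lower share of a cell type and less RNA per cell cannot be told apart. The arrays held 13396 to 19455 values each. Repeats of 1 organ correlated weakly across probes, with a median Spearman rho of 0.10 between arrays of like dye orientation and -0.04 after exchange of the dyes. The means of the 2 dye orientations had the same sign in 45.2% to 51.4% of rows, depending on the organ. Of 22 arrays with a value for Nr4a1, 21 gave a ratio below 0. As the direction was read from this gene, its sign is no separate check. Its fitted log2 ratio was -1.73 ± 0.31 (SE, 3 arrays) in skeletal muscle (adjusted p = 0.00222, limma). In brown adipose tissue, spleen, heart, lung and testis it was -1.14, -0.75, -0.67, -0.38 and -0.24, at an adjusted p of 0.167 or more (limma). With array weights of 2 kinds, brown adipose tissue had 0.00240 or 0.00877 and heart 0.0963 or 0.0468.

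Of the 30 pairs of gene and organ, 2 passed the test, Bid and Bak1 in skeletal muscle, both higher in the mutant pool. The test was limma's, over 1 model of the 24 arrays with a value per organ and a dye term, at a Benjamini-Hochberg adjusted p below 0.05 over all rows tested in an organ. The background in skeletal muscle was high, since 5.58% of the 11974 rows passed in either direction there and 3.36% passed as higher. Passing rows made up 0.0809% in lung, 1.53% in spleen and 0% in testis, heart and brown adipose tissue, where 491, 284 and 102 rows had an unadjusted p below 0.05. With array weights 6 or 9 rows passed in testis, 19 or 41 in heart and 6 in brown adipose tissue, depending on how the weights were estimated. None of the 25 pairs outside skeletal muscle had an unadjusted p below 0.05. In lung 819 of 12365 rows and in spleen 1727 of 11217 rows did.

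**Figure D1:**
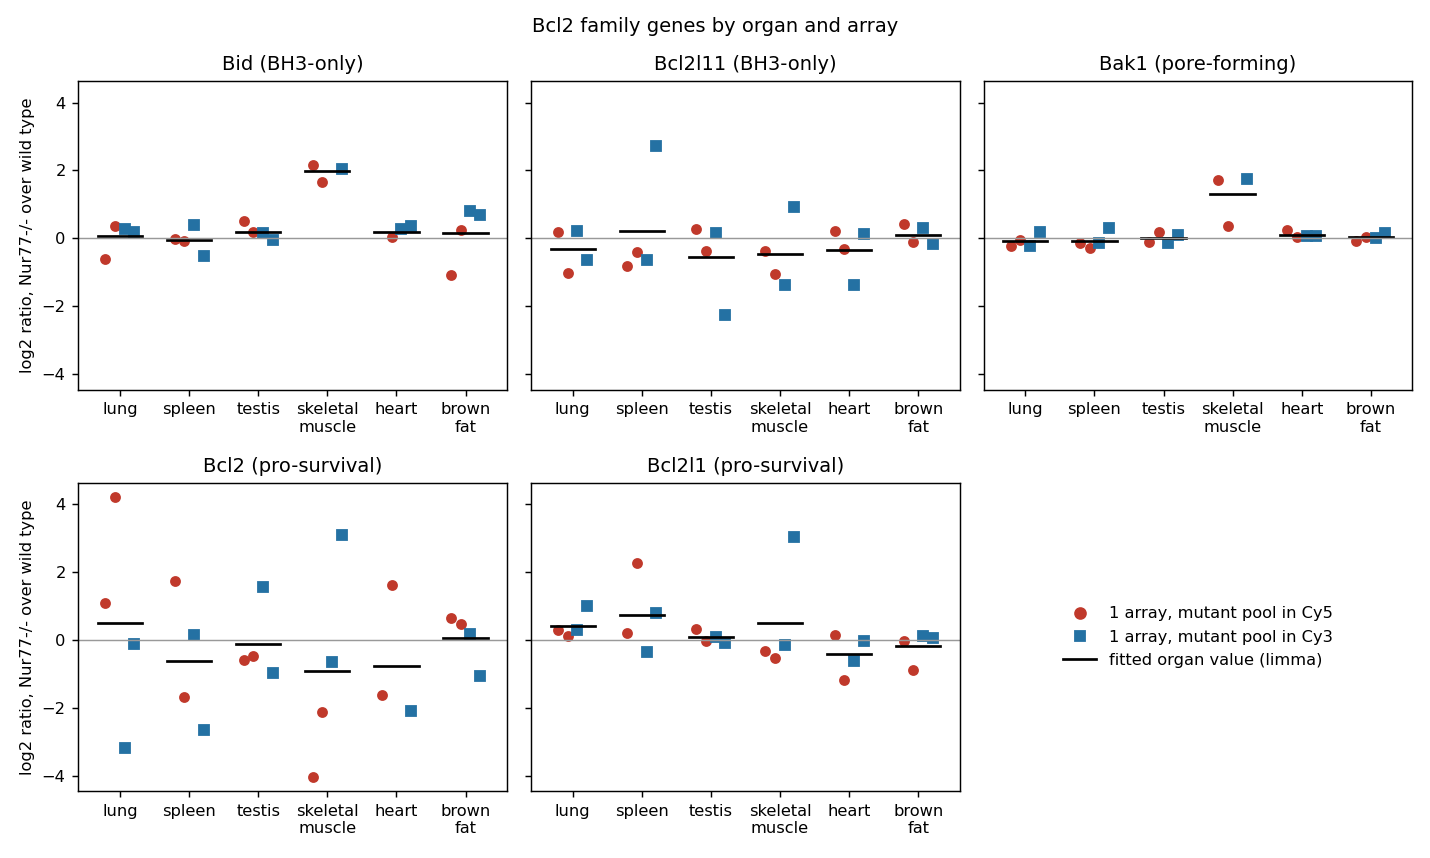
Log2 ratio of mutant over wild type (vertical axis) for the 5 measured genes in the 6 organs (horizontal axis), 1 point per array, with circles for the mutant pool in Cy5, squares for the mutant pool in Cy3 and a bar for the fitted organ value. The 3 skeletal muscle values of Bid lie between 1.65 and 2.17, above its values in every other organ, while those of Bcl2 range from -4.05 to 3.11.

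Bid encodes a BH3-only protein that caspase-8 cuts, which carries a death receptor signal to mitochondria. In skeletal muscle its log2 ratio was 2.17 and 1.65 where the mutant pool carried Cy5, and 2.04 on the only array measuring it where that pool carried Cy3. All 3 values lie above the highest of the 19 values in the other organs, 0.80. The fitted ratio was 2.00 ± 0.33 (SE, 95% confidence interval 1.30 to 2.69), a level 3.99-fold higher in the mutant pool (adjusted p = 0.00127, limma). Only 40 of 8238 rows measured on the same 3 arrays, 0.486%, had as high a lowest value.

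Bak1 encodes Bak, which sits in the outer mitochondrial membrane and forms the pore there. Its log2 ratio in skeletal muscle was 1.72 and 0.35 with the mutant pool in Cy5 and 1.74 with the mutant pool in Cy3. The array at 0.35 stands well below the other 2, though still above the highest value in any other organ, 0.295. The fitted ratio was 1.29 ± 0.27 (SE, 95% confidence interval 0.73 to 1.86), 2.45-fold higher in the mutant pool (adjusted p = 0.00744, limma). Of rows measured on the same 3 arrays, 6.36% had as high a lowest value, and 11.6% were above 0 on all 3.

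The skeletal muscle arrays differed from each other in ways that touch both values. Their medians over all rows were -0.46, -0.81, 0.01 and 0.69 for replicates 1 to 4. Taken relative to these medians, Bid stood at 2.63, 2.46 and 1.35 on replicates 1, 2 and 4, and Bak1 at 2.18, 1.16 and 1.05. On replicate 4, Bid was at the 77.3rd percentile of the array and Bak1 at the 72.2nd, lower places than on replicate 1, where they were at the 96.9th and 94.9th. Replicate 4 had the lowest weight of the 24 arrays, 0.182, and it is the single array on which the dye exchange of Bid and Bak1 in this organ rests, since replicate 3 gave no value for either. All 5 measured genes were above 0 on replicate 4, at 0.94 to 3.11.

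Whether both genes passed varied with the model of the spread. With array weights estimated from all rows, both passed, Bid at an adjusted p of 0.0495 and Bak1 at 0.0426, beside 1.44% of all rows that passed as higher. With weights from the rows measured on all 24 arrays, Bid had an adjusted p of 0.0840 and Bak1 of 0.0474, beside 1.15% of rows passing as higher (limma in each case). Fitted on the skeletal muscle arrays alone, neither passed and no row of the table did, with 1052 rows at an unadjusted p below 0.05. With the arrays centred and scaled to a common spread, neither passed either. Without replicate 1 of every organ Bak1 was at 1.04 (adjusted p = 0.171), and without skeletal muscle replicate 4, with 1 dye orientation allowed, it was at 1.07 (0.0608), while Bid passed in both. The median row spread over the 4 arrays was 1.19 (SD) in skeletal muscle, the highest of the 6 organs, against 0.471 in brown adipose tissue. For Bak1 the SD was 0.80 over the 3 skeletal muscle arrays and 0.09 to 0.25 in the other 5 organs, while its fit held 1 spread for all 6.

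The ratios of cell type markers also differed between these arrays. The arrays were read as repeats of 1 pair of pools, and on that reading such differences are between hybridisations. Whether the pools differed between arrays was not tested. The median ratio of the skeletal muscle markers, relative to the array's median, was 0.86, 1.29, 0.06 and -1.28 on replicates 1 to 4, over 9, 9, 9 and 7 genes. That of the B cell markers was -1.03, -1.29, 0.13 and 2.44, over 3 to 5 genes, and that of the myeloid markers -2.28, -0.89, 0.21 and 1.71, over 5 or 6 genes. Replicates 1 and 2 carried the mutant pool in Cy5, and 3 and 4 in Cy3. The skeletal muscle set was above 0 on both Cy5 arrays and below 0 on replicate 4. The B cell and myeloid sets were the other way round, and on replicate 3 each of these 3 sets was at 0.21 or less. The T cell set, at 0.08, 0.54, 0.67 and -0.29, had the signs of the skeletal muscle set, unlike the other immune sets. So did the heart set, at 0.58, 1.07, 0.105 and -1.39. The erythroid, exocrine pancreas, testis and brown fat sets kept to neither order, and the lung set had no value on replicate 4. On this scale Bid and Bak1 were both lowest on replicate 4 and above 0 on each array that measured them. Of the 9 skeletal muscle markers tested none passed, nor did any of the 3 B cell and 5 myeloid markers tested, and the part of these differences in the values of Bid and Bak1 was not tested. Of the other marker lists in skeletal muscle, 1 of 3 erythroid genes passed, Slc4a1 at 2.02 (adjusted p = 0.0244, limma), and with array weights it had 0.0882 or 0.135. The other erythroid genes, Hba-a1 and Alas2, were at -0.82 and -0.62, on the other side of 0. Of 7 brown fat genes 1 passed, Cidea at 1.84 (adjusted p = 0.0204, with array weights 0.0470 or 0.0720), while the list's median was -0.55 with 3 of 7 above 0. No T cell, heart, testis, lung or exocrine pancreas marker passed there.

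Outside skeletal muscle, Bid lay between -1.08 and 0.80. Its values in brown adipose tissue were -1.08 and 0.26 on the Cy5 arrays (mutant pool in Cy5) and 0.80 and 0.68 on the Cy3 arrays, the widest range of the 5 organs. In heart the 3 measured arrays were all just above 0, at 0.05, 0.27 and 0.37. The fitted ratios ran from -0.05 in spleen to 0.20 in testis, and the 5 intervals together covered -0.65 to 0.87. Changes of Bid larger than these bounds are outside the intervals, while smaller ones were not detectable with 3 or 4 arrays.

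Bak1 was nearly constant outside skeletal muscle. Its 20 values lay between -0.293 and 0.295, with an SD of 0.168, the 9th smallest of 12212 rows measured on at least 15 of these arrays, whose median SD was 0.924. Fitted ratios were between -0.08 and 0.10 in the 5 organs, and their 95% confidence intervals together covered -0.57 to 0.59. Bid ranked 1586th in the same order, Bcl2l1 4065th, Bcl2l11 6400th and Bcl2 11413th.

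**Figure D2:**
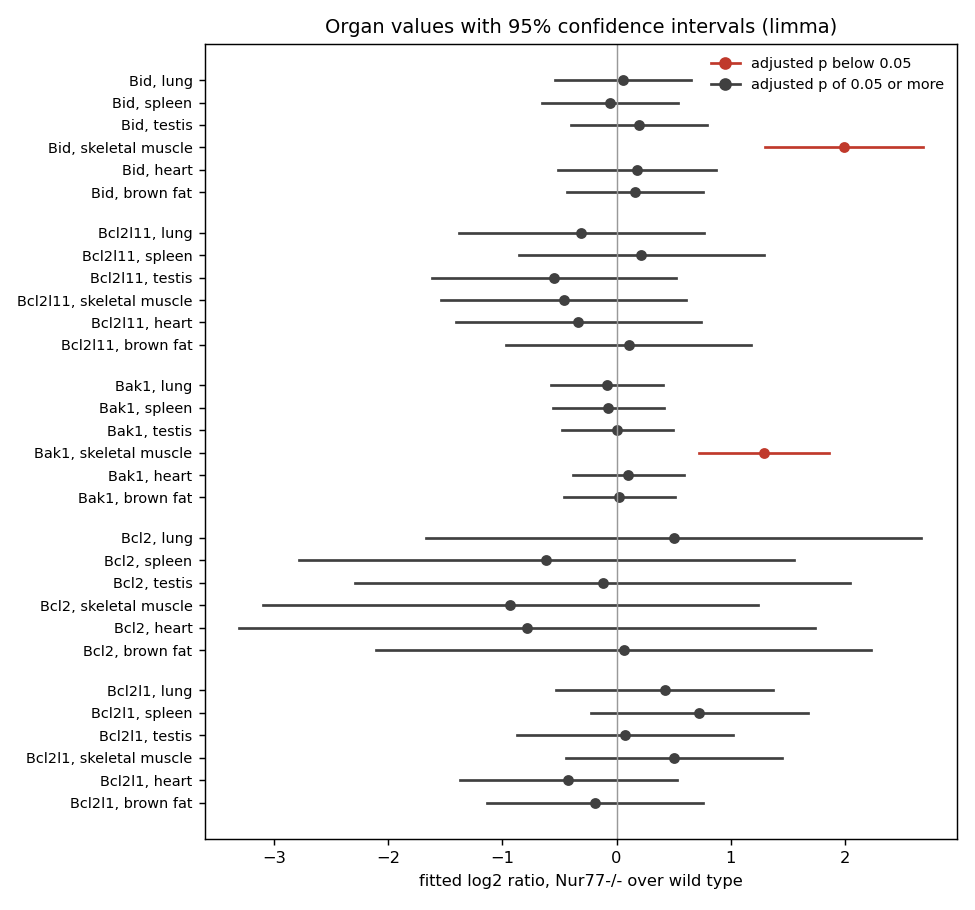
Fitted log2 ratio of mutant over wild type (horizontal axis, points) with its 95% confidence interval (lines) for each gene and organ, in red where the adjusted p was below 0.05. The intervals of Bid and Bak1 in skeletal muscle lie above 0, and those of Bcl2 are the widest.

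Since Bid and Bak1 moved the same way in skeletal muscle, the sequences at their start sites are given, as RefSeq holds them for GRCm38.p6, in windows of 300 bases around a transcript start that its table gives, on the strand of the gene. Capitals mark the letters GGGCGG, the core of the GC box, or CCGCCC, the same on the other strand. Bid lies on chromosome 6 (chr6:120893119-120917062) and Bak1 on chromosome 17 (chr17:27019812-27028627), both on the minus strand. The window of Bid lies mostly within the outer bounds of the gene, and that of Bak1 mostly before its start.
Bid, chr6:120916775-120917074: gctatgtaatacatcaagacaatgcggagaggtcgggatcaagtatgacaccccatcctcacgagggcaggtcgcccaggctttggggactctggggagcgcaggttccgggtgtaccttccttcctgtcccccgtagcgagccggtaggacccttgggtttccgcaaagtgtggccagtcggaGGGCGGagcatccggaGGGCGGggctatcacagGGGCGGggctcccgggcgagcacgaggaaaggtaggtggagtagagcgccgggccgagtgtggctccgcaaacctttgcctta
Bak1, chr17:27028578-27028877: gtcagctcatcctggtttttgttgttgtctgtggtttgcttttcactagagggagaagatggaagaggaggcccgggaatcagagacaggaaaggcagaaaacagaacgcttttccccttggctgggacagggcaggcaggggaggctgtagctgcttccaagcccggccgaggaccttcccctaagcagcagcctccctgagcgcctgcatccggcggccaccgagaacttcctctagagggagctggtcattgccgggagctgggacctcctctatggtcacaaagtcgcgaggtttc
The window of Bid held 3 GC boxes and that of Bak1 none, with 35.7% of the 32851 mouse windows of the same length holding at least 1. The letters AAAGGTCA, to which a single Nur77 molecule binds, were in neither window on either strand, nor in those of Bcl2, Bcl2l11 or Bcl2l1, and were in 1.51% of all windows. No match of one motif can overlap a match of the other, and the windows leave out sites farther from the gene.

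The other BH3-only gene, Bcl2l11, encodes Bim, which is needed for the death of many lymphocytes. It lies on chromosome 2 (chr2:128126038-128162547) and had 3 probes. In spleen its 4 values were -0.83, -0.40, -0.63 and 2.73, so replicate 4 alone was above 0. In skeletal muscle they were -0.37, -1.05, -1.38 and 0.94, and again replicate 4 alone was above 0. In testis replicate 4 was the low one, at -2.27 against -0.36 to 0.28 on the others. The fitted ratios lay between -0.55 ± 0.51 (testis) and 0.22 ± 0.51 (spleen; SE), none passed, and the mean over the 6 organs was -0.22 ± 0.15.

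Bcl2l11 was the gene whose dye orientations most often had means of 1 sign, in 5 of 6 organs. Its best covered probe, 15161, had a value on 23 arrays and gave fitted ratios near 0 in lung, testis, heart and brown adipose tissue, from -0.07 to -0.04. In spleen that probe gave -0.95 ± 0.51, while probe 7340 gave 1.23 ± 1.17, so the sign of Bcl2l11 in spleen differed between its probes.

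Bcl2, the founding pro-survival gene of the family, lies on chromosome 1 (chr1:106538176-106714290) and had 2 probes. Its ratios were the most scattered of the 5 genes. In lung they were 1.08 and 4.22 on the Cy5 arrays and -3.18 and -0.11 on the Cy3 arrays, so the dye orientations stood on opposite sides of 0. In skeletal muscle the order was the other way round, -4.05 and -2.13 with Cy5 against -0.65 and 3.11 with Cy3. The dye orientations had means of the same sign in only 1 of the 6 organs.

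The fitted ratios of Bcl2 lay between -0.93 in skeletal muscle (95% confidence interval -3.10 to 1.24) and 0.50 in lung (-1.67 to 2.67), and none passed. These intervals allow changes of several fold either way, so no direction can be given for Bcl2. The quietest organ for this gene was brown adipose tissue, with 0.66 and 0.46 in Cy5 and 0.19 and -1.06 in Cy3. Bcl2 probe 19395 also held the only value of these genes in the separate mode of very large ratios, 17.0 on lung replicate 2, which was treated as not measured. The dye term of Bcl2 was 0.50 ± 0.87 (SE), and over all rows 0.564% of dye terms passed. None of the 5 genes did, at adjusted p from 0.667 to 0.937 (limma), with 2144 rows at an unadjusted p below 0.05.

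Bcl2l1 encodes Bcl-xL, a pro-survival protein of many tissues. It lies on chromosome 2 (chr2:152758732-152833803), and its 4 probes did not move together. The averaged gene was all above 0 only in lung, at 0.29, 0.11, 0.28 and 1.01, and its fitted ratio there was 0.42 ± 0.46. The largest fitted ratio was 0.73 ± 0.46 in spleen (95% confidence interval -0.22 to 1.68, adjusted p = 0.472, limma), where a single array at 2.27 stood above the others at -0.35 to 0.79. In skeletal muscle the averaged values were -0.32, -0.53 and -0.15 on replicates 1 to 3 and 3.02 on replicate 4, and the fitted 0.50 ± 0.46 did not pass.

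A single probe of Bcl2l1 was nevertheless higher in skeletal muscle. Probe 14430, the only probe of these genes with a value on all 24 arrays, stood at 1.57 and 1.44 with the mutant pool in Cy5 and at 0.35 and 3.10 with it in Cy3. With each probe tested as its own row its ratio was 1.62 ± 0.37 (SE), 3.06-fold higher in the mutant pool (adjusted p = 0.00965, limma), beside 4.18% of 13968 probe rows that passed as higher. Bid and Bak1 passed in this fit too. With array weights of the 2 kinds the adjusted p was 0.261 or 0.348 for probe 14430, 0.0554 or 0.0900 for Bid and 0.0406 or 0.0275 for Bak1, so only Bak1 of the 3 passed.

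The other 3 probes of Bcl2l1 did not follow it. Probe 7690 was below 0 on the 3 skeletal muscle arrays that measured it, at -1.38, -2.01 and -0.14, and gave -0.88 ± 0.64. Probe 14500 gave -0.06 ± 0.67, and probe 19935 gave 1.14 ± 0.92, resting on 4.67 on replicate 4 against -1.02 and -0.23 on the other arrays. Outside skeletal muscle, probe 14430 lay between -0.84 and 1.36 on 20 arrays, and its fitted ratios ran from -0.01 to 0.25. Probes of Bcl2l1 gave both signs in 5 of 6 organs, those of Bcl2 in 3 of 4 organs where both were tested, and those of Bcl2l11 in both organs where 2 or more were tested. Bid and Bak1 have 1 probe each, so no second probe bears on their values.

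**Figure D3:**
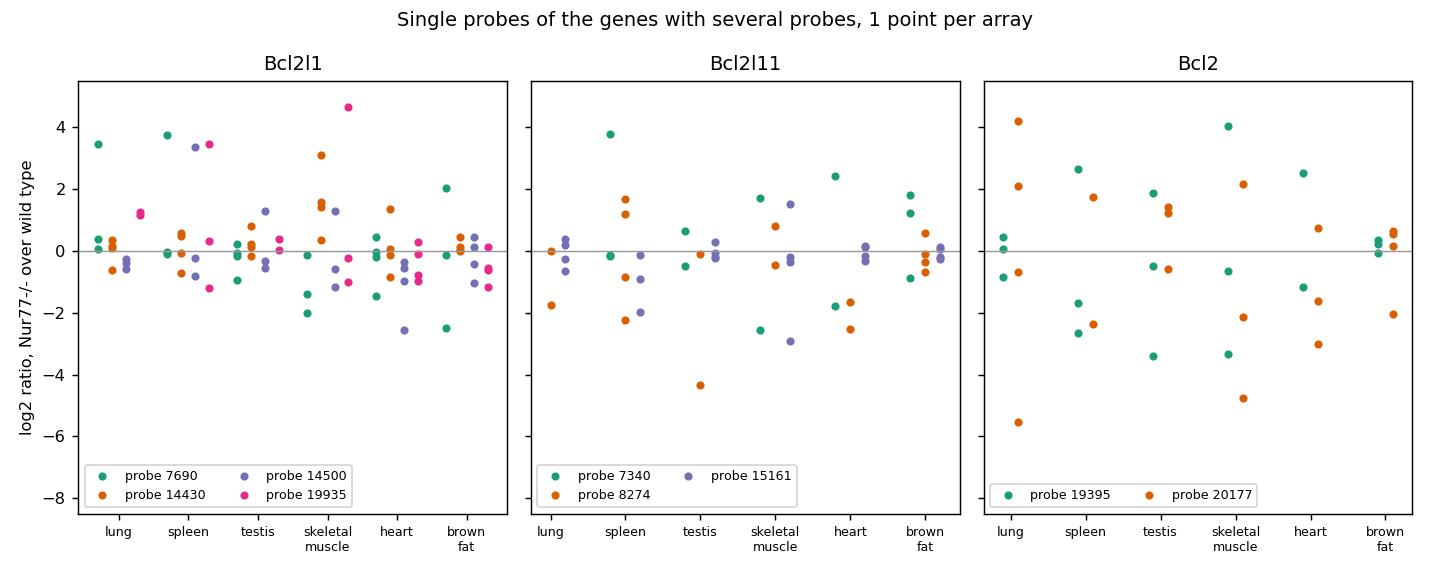
Log2 ratio of mutant over wild type (vertical axis) for the single probes of Bcl2l1, Bcl2l11 and Bcl2 in the 6 organs (horizontal axis), 1 point per array. In skeletal muscle the 4 values of Bcl2l1 probe 14430 lie between 0.35 and 3.10, while probe 7690 lies below 0.

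The difference between organs was tested for each gene. Bid had the largest F, 5.78 (adjusted p = 0.116, limma's moderated spread), and Bak1 had 4.07 (adjusted p = 0.253), so neither was shown to differ between organs over the 7553 rows tested, of which 0.98% passed. For Bcl2, Bcl2l1 and Bcl2l11 F was 0.275, 0.940 and 0.368. Averaged over the 6 organs, Bid was at 0.42 ± 0.27 (5 of 6 organs above 0) and Bak1 at 0.23 ± 0.22 (4 of 6), while Bcl2 was at -0.36 ± 0.23 (2 of 6) and Bcl2l1 at 0.19 ± 0.18 (4 of 6; SE). No mean of the 5 genes passed, at adjusted p from 0.761 to 0.804 (limma), and 0% of the 9883 rows did, with 504 at an unadjusted p below 0.05.

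The rest of the apoptosis machinery was described from 7 lists of 76 genes, of which 41 had a symbol in the probe annotation and 28 to 37 were tested in an organ. Only 1 of them passed in any organ, 1 of 32 tested in skeletal muscle, where 266 of all 11974 rows passed as lower. Vdac2, a channel of the outer mitochondrial membrane that holds Bak, was lower in mutant skeletal muscle, at -0.76, -0.48, -1.53 and -2.14 on replicates 1 to 4. Its fitted ratio was -1.23 ± 0.26 (SE, adjusted p = 0.00703, limma), and with array weights the adjusted p was 0.115 or 0.195. With each array centred on its median, Vdac2 no longer passed.

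**Figure D4:**
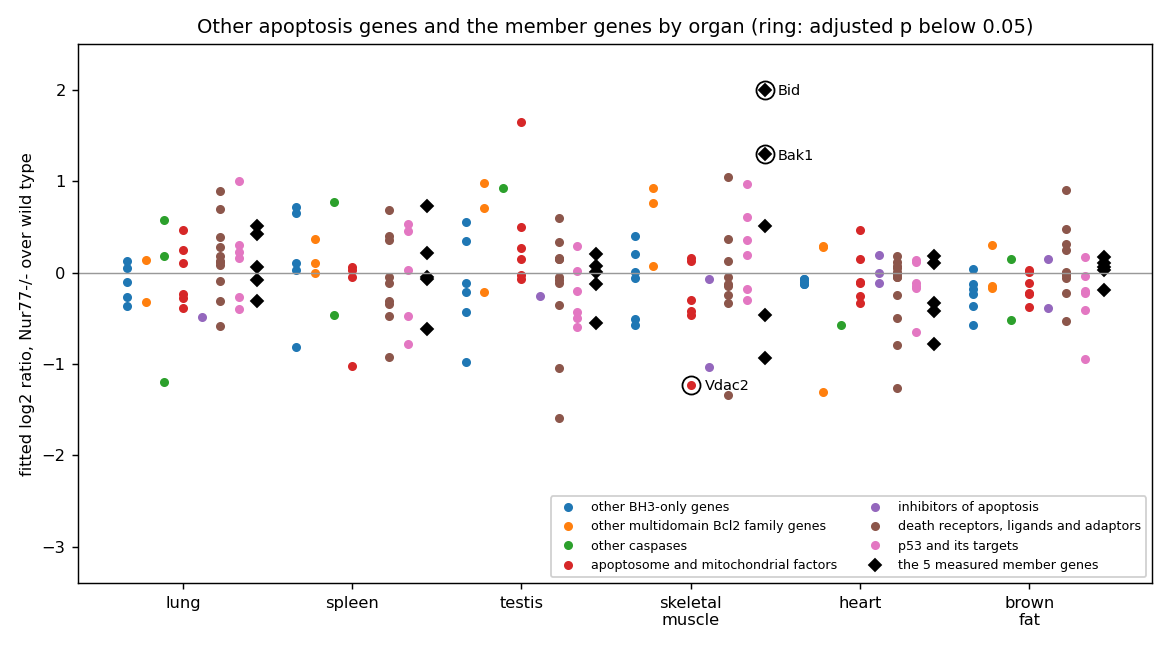
Fitted log2 ratio of mutant over wild type (vertical axis) for the genes of 7 apoptosis lists (coloured circles) and the 5 measured genes named above (black diamonds) in the 6 organs (horizontal axis), with a ring where the adjusted p was below 0.05. Bid, Bak1 and Vdac2 in skeletal muscle carry the rings.

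Over these lists in skeletal muscle, 32 genes were tested and their median ratio was -0.05, beside -0.16 over all rows. Of the genes listed as other BH3-only genes, 6 were tested there, Bad, Bmf, Bnip3, Bnip3l, Bcl2l13 and Becn1. The list is looser than the strict class, since it holds Bcl2l13. Of the 6, 3 were above 0, they lay between -0.57 and 0.40, and none passed. The genes listed as other multidomain members, Bok, Mcl1 and Bcl2l12, had fitted ratios above 0, as did 41.8% of all rows. Bok was above 0 on 3 of 4 arrays, Mcl1 on 2 of 4 and Bcl2l12, at 0.07 ± 0.78, on 1 of 3. Bok, a relative of Bak and Bax, was at 0.92 ± 0.44, and Mcl1, a pro-survival gene, at 0.76 ± 0.43, and none of the 3 passed. Fadd, the adaptor between Fas and caspase-8 upstream of Bid, was above 0 on all 4 skeletal muscle arrays, at 0.38, 1.08, 2.48 and 0.24, but its ratio of 1.04 ± 0.39 did not pass (adjusted p = 0.128, limma). No caspase was tested in skeletal muscle: Casp1, Casp2 and Casp4 have a symbol but too few values there.

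In the other 5 organs no gene of the lists passed, with or without array weights, and the list medians lay between -0.12 (brown adipose tissue) and 0.11 (lung), beside -0.07 and -0.01 over all rows of those organs. At an unadjusted p below 0.05 stood Bnip3l, Cradd and Mdm2 in spleen, at -0.81, -0.93 and -0.78, Aifm1, Tnf and Tnfrsf1b in testis, at 1.65, -1.59 and -1.04, and Cdkn1a in brown adipose tissue, at -0.94. That was 3 of 28 list genes tested in spleen, 3 of 34 in testis and 1 of 37 in brown adipose tissue. Of all rows tested in these organs, 1727 of 11217, 491 of 13564 and 102 of 15223 stood below 0.05. The genes named here were chosen after their values were seen, and none holds after adjustment. The spleen pools also differed in markers of the exocrine pancreas, a neighbouring organ: 7 of 8 tested passed as lower in the mutant pool, from -6.68 (Cela2a) to -3.44 (Cpa1), and the list's median was -4.98. Cpb1, the remaining one, was at 1.89 and did not pass. Other markers past the test were Tnni2 (-1.78) and Cidea (1.56) in spleen, and Tnni2 (-1.99), Tnnc2 (-3.46) and Myl2 (1.61) in lung (limma). The part of these marker differences in the spleen and lung values above was not tested.

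The genes whose ratios followed each member most closely over the arrays were found by Pearson correlation, after taking off the array median and the mean of each dye orientation. For Bak1 these were Cemip (r = 0.91 over 22 arrays) and Ddx54 (0.91 over 23), and without the skeletal muscle arrays r was 0.18 and 0.48. For Bid they were Vps16 (0.89 over 20) and Itga7 (0.87 over 21), with 0.64 and 0.58 outside skeletal muscle. The likeness to Bak1 therefore rested on the skeletal muscle arrays more than that to Bid did. Bcl2l1 was followed by Lpp (0.83) and Inpp1 (0.80) over 24 arrays, Bcl2l11 by Zmynd11 (0.71 over 24) and St3gal1 (0.73 over 21), and Bcl2 by Ppp1r3g (0.72 over 20) and Chaf1a (0.72 over 21). These are the highest of 5226 to 6554 candidates each, and the points share arrays and dyes, so they are descriptions.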

How the data were processed

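RNA of 6 organs of Nur77-/- and Nur77+/+ mice was compared on 24 two-colour arrays, labelled indirectly from 20 µg of total RNA per the labels' protocols. The values are log2 ratios, 1 per probe and array, deposited by the authors. The sources used here give no background correction, normalization, scale, centring or direction for them. No value lay between 9.94 and 15.70 in size, and the 1.24% beyond (absolute values above 12) were set to missing.

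Probes were named from the platform annotation, and those with the same symbol were averaged per array, which gave 16148 rows from 20205 probes. Testing a row in an organ required values on at least 3 of its 4 arrays and in both dye orientations. Tests used limma 3.58.1 in R 4.3.3, with 6 organ coefficients and 1 dye term, and Benjamini-Hochberg adjustment over all rows of an organ. Differences between organs were tested with an F statistic on the moderated spread, and recurrence over the 6 organ means. The procedure was tested on simulated data. The number of arrays limits the precision.

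The genes and lists were chosen with earlier results of these data known. All listed genes, Nr4a1, each gene of the other apoptosis lists past the test and the 2 genes most like each member by Pearson r (values on at least 20 shared arrays) were named by rule. The rule was extended, after values were seen, to Fadd, Bok, Mcl1, Bcl2l12, the untested caspases, marker genes past the test and list genes at an unadjusted p below 0.05. Alternatives were array weights, centring, scaling, the separate mode kept, probe medians, other dye terms, complete rows, single organs, a replicate block and arrays left out.

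Arrays of different organs that share a replicate number deviated together no more than others, with a median r across rows of 0.0437 in 60 pairs against 0.0457 for other numbers of the same dye, so the numbers were not taken as pairs.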

Additional observations from a re-analysis of the deposited data

Results flagged for a closer look

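Single arrays stood apart from the other 3 of their organ for 3 of the 26 sets of 4 values of these genes, by the ratio of the gap to the whole range (Dixon's test), which chance alone passes in about 1 of 20 sets. Bcl2l11 was at 2.73 on spleen replicate 4, with the other arrays between -0.83 and -0.40. Bcl2l1 was at 3.02 on skeletal muscle replicate 4, with the others between -0.53 and -0.15. Bcl2l1 was at -0.89 on brown adipose tissue replicate 2, with the others between -0.04 and 0.12. Bid and Bak1 in skeletal muscle have 3 values each and were not examined this way.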

How the results depend on the processing

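Bid and Bak1 in skeletal muscle were above 0 in all 14 alternatives that gave a value, Bid at 1.13 to 2.21 with adjusted p from 0.00103 to 0.549 (11 of 14 past the test) and Bak1 at 0.74 to 1.73 with adjusted p from 0.00325 to 0.595 (10 of 14; limma). Arrays centred and scaled to a common spread gave Bid 1.13 (adjusted p = 0.414), Bak1 0.74 (0.191) and Nr4a1 -0.77 (0.414), and 0 of the 5 genes passed. The organ fitted alone gave Bid 1.97 (0.549), Bak1 1.39 (0.595) and Nr4a1 -1.50 (0.563), and again 0 passed. Array weights from complete rows, chosen after seeing the data, gave Bid 2.21 (0.0840) and left 1 gene past the test. With the separate mode kept, Nr4a1 was at -1.99 (0.692).

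Leaving out replicate 1 of every organ left 1 gene past the test, with Bak1 at 1.04 (0.171), and Nr4a1 at -1.39 (0.0861). Without replicate 2, Nr4a1 was at -1.61 (0.0684). Over the left-out replicates Bak1 ranged from 1.04 to 1.73, Nr4a1 from -1.74 to -1.39 and the number of genes past the test from 1 to 2. Without replicate 4 Bid and Bak1 could not be tested, because no Cy3 array was left. With the demand for both orientations dropped, also chosen after seeing the data, Bid was at 2.06 (0.00896) and Bak1 at 1.07 (0.0608) without skeletal muscle replicate 4, and 1 gene passed.

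The count of other apoptosis genes lower in skeletal muscle was 1 (Vdac2). It was 0 with array weights of either kind, centring, scaling, the organ alone and without replicates 1, 3 or 4, and 2 with the separate mode kept and without skeletal muscle replicate 4, and scaling added 1 lower gene in brown adipose tissue. With the replicate block in place of the dye term, Bid was at 2.05 (adjusted p = 0.00250) and Bak1 at 1.24 (0.0161), and no call on a member changed. The 28 values that did not pass also failed to pass in all 423 comparisons with 17 alternatives (lowest adjusted p 0.160, limma). There were 41 changes of sign, in 19 of the 28 values. Complete rows could not be used for Bid or Bak1 in skeletal muscle, where replicate 3 has no value. The cause of these differences was not tested. Read as 4 hybridisations of 1 pair of pools, the arrays give no error between animals, and ratios give no signal over background.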

Other observations

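Heart was the organ in which both dye orientations had means of 1 sign for all 5 measured genes, beside 45.9% of all rows there. For Bcl2 that sign rested on a Cy5 mean of -0.0035, from -1.63 and 1.62, and on 1 Cy3 array. For Bid the only Cy5 array was replicate 2, at 0.05, whose wild-type channel is labelled as skeletal muscle. Bid was at 0.05, 0.27 and 0.37 and Bak1 at 0.24, 0.04, 0.06 and 0.08 on the heart arrays, above 0 on each, with fitted ratios of 0.18 ± 0.33 and 0.10 ± 0.23 (SE) that did not pass. In brown adipose tissue 1 of the 5 genes had means of 1 sign. Heart was picked after the values were seen.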
